A study of Homo sapiens with 6 samples.

Results

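The miR-34 family was examined in the human pancreatic ductal adenocarcinoma cell line Panc-1, with and without TGF-β. The members were taken by name: the array carries a probe for each of 6 mature miRNAs, the 5p and 3p arms of miR-34a, miR-34b and miR-34c, among 2565 miRNA probes in all. RNA of untreated control cells was hybridized to 3 arrays and RNA of cells treated with TGF-β at 10 ng/mL for 72 h to the other 3. All cells were of this 1 line and carried no other treatment. The labels do not say whether the arrays of a group came from separate cultures, so the p-values measure only the spread between these arrays, which may be technical.

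The products of the 3 genes of the family repress mRNAs of cell cycle, survival and migration genes, among them CDK6, MYC, BCL2, MET and SNAI1. miR-34a and the transcription factors Snail and ZEB1, which drive epithelial-mesenchymal transition (EMT), are known to repress each other, which is why the family is studied in cells exposed to TGF-β, an inducer of EMT. For miR-34a the 5p arm is the strand usually loaded into the silencing complex, and the 3p arm is the passenger strand.

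The mature sequences show what the members share and where they part. They come from the RefSeq annotation of GRCh38.p14, which matched 5 of the 6 members, the other being miR-34c-5p. Bases 2 to 8, the seed that pairs with target mRNAs, are in capitals.
hsa-miR-34a-5p: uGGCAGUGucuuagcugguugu
hsa-miR-34b-5p: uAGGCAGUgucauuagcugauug
hsa-miR-34a-3p: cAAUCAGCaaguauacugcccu
hsa-miR-34b-3p: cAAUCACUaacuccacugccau
hsa-miR-34c-3p: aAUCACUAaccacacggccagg

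The 5p arms of miR-34a and miR-34b shared the core GGCAGU, which lies at bases 2 to 7 of miR-34a-5p and at bases 3 to 8 of miR-34b-5p, so that their seeds differ by a shift of 1 base. At this shift and without gaps they matched at 12 of 22 aligned bases. That count understates their likeness, because the run uuagcug, which both sequences hold further on, is out of register at this shift. The seeds of the 3p arms differed from one another, although miR-34b-3p matched miR-34c-3p at 17 of 21 aligned bases and miR-34a-3p at 16 of 22. The probe sequences and their specificity are not given in the files, and the part of cross-hybridization between members in any value was not tested.

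The following miRNAs of other genes are shown because they have the seed of a member.
hsa-miR-449a: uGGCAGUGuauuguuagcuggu
hsa-miR-449b-5p: aGGCAGUGuauuguuagcuggc
hsa-miR-449c-5p: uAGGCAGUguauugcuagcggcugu
hsa-miR-2682-5p: cAGGCAGUgacuguucagacguc

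MIR34A lies on chromosome 1 of GRCh38.p14 from 9151668 to 9151777, on the minus strand, inside the interval of the lncRNA gene MIR34AHG (9148011 to 9182338). MIR34B and MIR34C lie on the plus strand of chromosome 11, from 111512938 to 111513021 and from 111513439 to 111513515, with 417 bp between them. Both are inside the intervals of the lncRNA gene MIR34BHG (111510602 to 111513888) and of the protein-coding gene BTG4 (111383826 to 111514725). The array files name no genome build and carry no coordinates.

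The values below start from the scanner's median intensity of each spot. An array's background was taken from its 320 blank spots, whose means were 18.2 to 21.3 intensity units, and a miRNA counted as detected on an array when its signal exceeded the blank mean by 2 SD, which set limits of 19.5 to 22.8 units. A miRNA was tested when all 3 arrays of either group detected it, and the 1457 such miRNAs were compared with limma on quantile-normalized log2 signals, with Benjamini-Hochberg adjustment over all of them. Precision was limited by how few arrays there were, and an exact permutation test of 3 arrays against 3 cannot go below p = 0.1 (2-sided). The control arrays were on 1 slide and the TGF-β arrays on another, and slide and treatment cannot be told apart.

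Of the 6 members, 5 were detected on all 6 arrays and were tested, and 3 of these 5 were lower in TGF-β-treated than in control cells at an adjusted p under 0.05: miR-34a-5p, miR-34a-3p and miR-34b-5p. None was called higher. Among all 1457 tested miRNAs, 3.98% were called, with 1.37% lower and 2.61% higher. In the 3 called members all control arrays exceeded all TGF-β arrays, which held for 10.1% of all tested miRNAs, with 18.9% apart in either direction. All 5 tested members had a log2 difference below 0, as did 52.5% of all tested miRNAs. Their differences lay between -0.73 and -0.21 with a median of -0.55, and the median of all tested miRNAs was -0.013. The remaining member, miR-34b-3p, stayed at the detection limit.

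**Figure D1:**
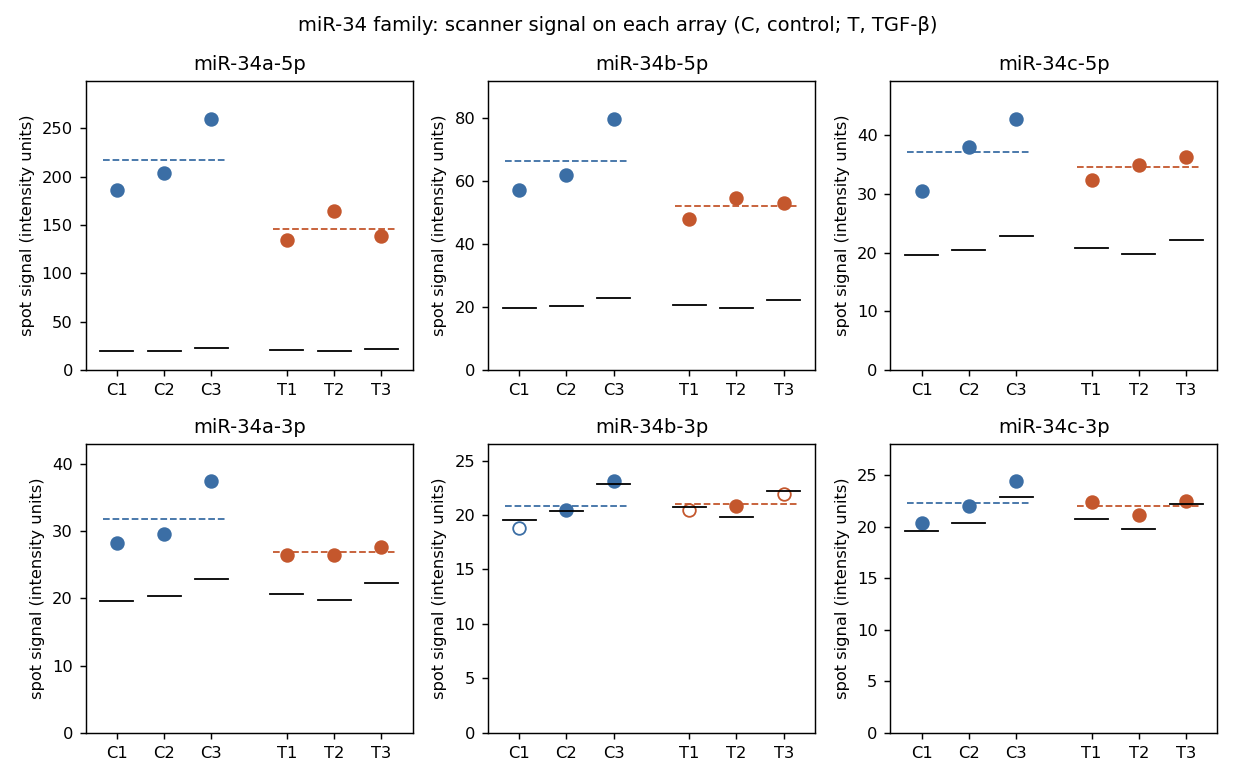
Spot signal of each family member on each array, in intensity units on a linear axis from 0 (C1 to C3, control replicates; T1 to T3, TGF-β replicates). Filled points were detected, open points were not, short black lines are each array's detection limit and dashed lines the group means; miR-34a-5p, miR-34a-3p and miR-34b-5p had all control points above all TGF-β points.

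miR-34a-5p, the guide strand and the best studied member, gave spot signals of 186, 204 and 260 intensity units with control RNA and 135, 165 and 139 units with RNA from TGF-β-treated cells. All control signals thus exceeded all TGF-β signals even before scaling, and every signal lay 174 to 311 blank-spot SDs above the blank mean. After normalization the signal was 198 ± 8.91 units for control (SD, n = 3) and 127 ± 9.69 units for TGF-β (SD, n = 3). The log2 difference was -0.64 (standard error 0.083, 95% interval -0.83 to -0.46, adjusted p = 0.000868 from limma), a ratio of 0.640, and the exact permutation test gave p = 0.1 (2-sided). With 1 array left out in turn, the difference was -0.68 to -0.58 and the adjusted p at most 0.00951. With a spot's local background in place of the blank spots it was 0.080, and the values behind this reversal are given further on. RNA of whole cultures was measured, so fewer cells with the miRNA and less of it per cell cannot be told apart.

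miR-34a-3p, the passenger strand of the same hairpin, had signals nearer to the background. They were 28.3, 29.6 and 37.4 units with control RNA and 26.5, 26.4 and 27.7 units with RNA from TGF-β-treated cells, which was 10.1 to 21.0 SDs above the blank mean. The groups did not overlap, but control replicate 1 and TGF-β replicate 3 were close to each other before scaling. The normalized signal was 12.01 ± 1.72 units for control (SD, n = 3) and 7.22 ± 0.484 units for TGF-β (SD, n = 3), a log2 difference of -0.73 (standard error 0.15, 95% interval -1.06 to -0.40, adjusted p = 0.0185 from limma). The call was lost without control replicate 2 (adjusted p = 0.0708), control replicate 3 (0.0798), TGF-β replicate 2 (0.0854) or TGF-β replicate 3 (0.0951), while the difference stayed between -0.81 and -0.61. Without background correction the difference was -0.24, with an adjusted p of 0.0203 from limma.

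Whether the arms of miR-34a changed to different degrees was compared within arrays. The log2 signal of miR-34a-3p minus that of miR-34a-5p was -4.21, -4.05 and -3.89 with control RNA and -4.10, -4.20 and -4.10 with RNA from TGF-β-treated cells. The groups overlapped, and the difference between them was -0.083 (exact permutation test, 2-sided p = 0.5, adjusted p = 0.625 over the 10 pairs of members compared). Without background correction it was 0.34 and with an offset of 5 added it was 0.15, so its sign was not settled. It was -0.16 without control replicate 1, -0.0024 without control replicate 3 and -0.048 without TGF-β replicate 2.

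miR-34b-5p, from the first hairpin on chromosome 11, gave 57.1, 61.7 and 79.7 units with control RNA and 47.9, 54.7 and 53.001 units with RNA from TGF-β-treated cells, 43.5 to 76.0 SDs above the blank mean. The control arrays were all higher, with control replicate 1 and TGF-β replicate 2 nearest to each other. The normalized signal was 46.7 ± 4.55 units for control (SD, n = 3) and 31.8 ± 1.48 units for TGF-β (SD, n = 3), a log2 difference of -0.55 (standard error 0.11, 95% interval -0.78 to -0.32, adjusted p = 0.0125 from limma). Without background correction it was -0.36, still called. It stayed between -0.61 and -0.47 with 1 array left out in turn. The call was lost without control replicate 2 (adjusted p = 0.0679), control replicate 3 (0.0532), TGF-β replicate 1 (0.0535) or TGF-β replicate 3 (0.0653).

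miR-34b-3p, from the other arm of that hairpin, had signals of 18.8, 20.5 and 23.1 units with control RNA and 20.4, 20.8 and 21.9 units with RNA from TGF-β-treated cells. It was detected on 2 control arrays and on 1 TGF-β array, with no signal more than 3.83 SDs above the blank mean, and was left out by the detection filter. The groups overlapped. In the limma fit with no filter its log2 difference was -0.02 (95% interval -0.78 to 0.75, adjusted p = 1), so that changes of either sign within this interval were not told apart from none.

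miR-34c-5p, from the second hairpin on chromosome 11, was detected on all arrays with 30.5, 38.0 and 42.8 units with control RNA and 32.3, 34.9 and 36.3 units with RNA from TGF-β-treated cells. Control replicate 1 was the lowest of the 6 arrays and the other two control arrays were the highest. The log2 difference was -0.21 (standard error 0.16, 95% interval -0.55 to 0.14, adjusted p = 0.644 from limma). Without control replicate 1 it was -0.38 (adjusted p = 0.224), and without control replicate 2 it was -0.086 (adjusted p = 0.905). The interval reaches from about the difference measured for miR-34b-5p to above 0.

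miR-34c-3p was barely above the limit, with 20.4, 22.1 and 24.4 units with control RNA and 22.4, 21.1 and 22.5 units with RNA from TGF-β-treated cells, 2.34 to 4.72 SDs above the blank mean. The groups overlapped. Its log2 difference was -0.28 (standard error 0.30, 95% interval -0.95 to 0.38, adjusted p = 0.767 from limma), and it was -0.53 without TGF-β replicate 1 and -0.045 without TGF-β replicate 3.

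**Figure D2:**
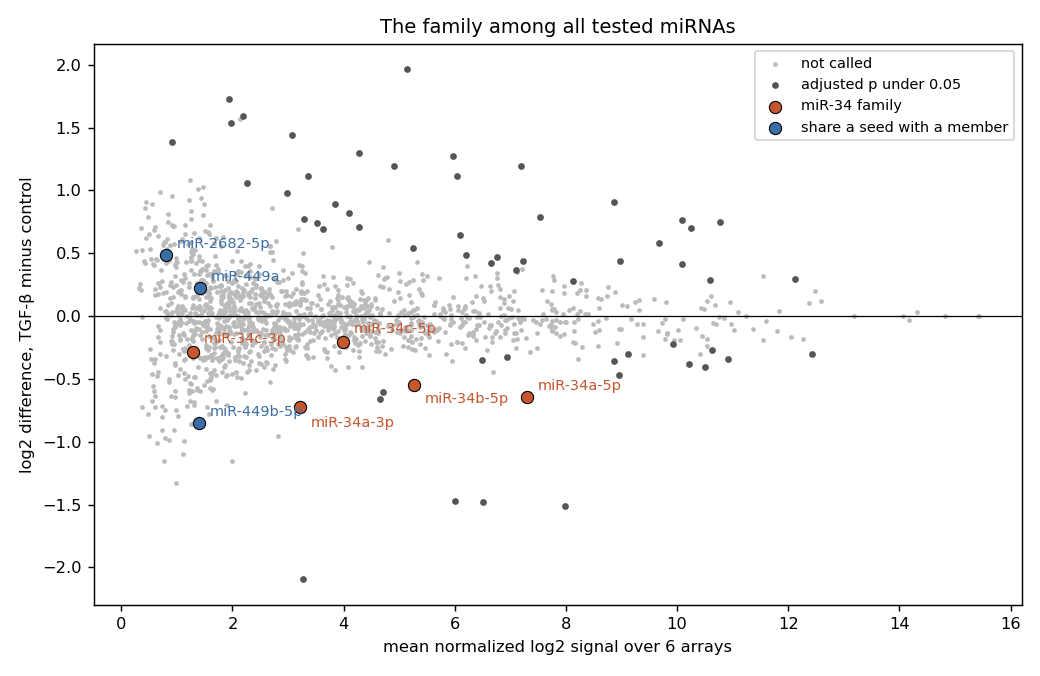
Log2 difference of TGF-β minus control (vertical axis) against the mean normalized log2 signal over the 6 arrays (horizontal axis) for the 1457 tested miRNAs, with family members in orange and miRNAs that share a seed with a member in blue. Dark points have an adjusted p under 0.05. miR-34a-5p at -0.64 and miR-34b-5p at -0.55 also have one, but are drawn in orange as all members are.

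That miR-34b-5p passed the threshold and miR-34c-5p, from the neighboring hairpin, did not is no test of a difference between them, and the difference was therefore compared within arrays. The log2 signal of miR-34c-5p minus that of miR-34b-5p was -1.67, -1.19 and -1.51 with control RNA and -1.17, -1.11 and -1.06 with RNA from TGF-β-treated cells. All TGF-β arrays were above all control arrays, by 0.34 on average, but control replicate 2 and TGF-β replicate 1 nearly met. The exact permutation test gave p = 0.1 (2-sided, the smallest possible) and an adjusted p of 0.333 over the 10 pairs. With 1 array left out in turn, the difference lay between 0.24 and 0.48, and it was above 0 each time.

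Against miR-34a-5p, the change of miR-34c-5p differed by 0.44 with overlapping groups (exact permutation p = 0.2, adjusted p = 0.333), and that of miR-34b-5p differed by 0.095 (exact permutation p = 0.4, adjusted p = 0.571). Against miR-34a-3p, the change of miR-34c-5p differed by 0.52 and that of miR-34b-5p by 0.18, in both cases with groups apart (exact permutation p = 0.1, adjusted p = 0.333 each). Without control replicate 1 the differences from miR-34a-5p were 0.27 for miR-34c-5p and 0.032 for miR-34b-5p, and the latter was 0.054 without TGF-β replicate 3. With the local background, the signs of both differences from miR-34a-5p and of both from miR-34a-3p turned. No pair of members could pass the adjusted threshold with this number of arrays. Levels of different members were not compared, since each is read by its own probe.

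The profiles over the 6 arrays were also set against those of the other miRNAs detected on all arrays, of which there were 1281 for each member. Likeness was the root mean square difference of log2 signals, each centred on its own mean, so that a small value means a similar rise and fall from array to array. The nearest profiles to miR-34a-5p were those of miR-34b-5p (0.095) and miR-34a-3p (0.11), followed by miR-4456 (0.13). For miR-34a-3p the nearest were miR-34a-5p (0.11), miR-34b-5p (0.12) and miR-3151-5p (0.14). For miR-34b-5p they were miR-3151-5p (0.084), miR-34a-5p (0.095) and miR-3117-3p (0.11). The miR-34c arms had no family member among their nearest profiles, which were miR-6851-3p, miR-624-5p and miR-10b-3p for miR-34c-5p and miR-126-5p, miR-3616-3p and miR-8077 for miR-34c-3p. All these points share the same arrays and the same normalization, and likeness is given as a description over 6 arrays. Centring was over both groups, so a similar difference between the groups also made profiles alike. Among the neighbors of miR-34a and miR-34b-5p outside the family, the log2 differences were -0.48 for miR-4456, -0.52 for miR-3151-5p and -0.53 for miR-3117-3p. None of these was called (adjusted p = 0.267, 0.497 and 0.198 from limma).

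The miR-449 family and miR-2682-5p, which share a seed with miR-34a-5p or miR-34b-5p, were near the background throughout, with no signal more than 6.78 SDs above the blank mean. Of these 4 miRNAs, 3 were tested and none was called. miR-449a, with 20.3, 22.6 and 23.4 units with control RNA and 23.1, 22.4 and 22.7 units with RNA from TGF-β-treated cells, had a log2 difference of 0.23 (95% interval -0.58 to 1.03). miR-449b-5p had the seed of miR-34a-5p and a log2 difference of -0.85 with groups apart after normalization (95% interval -1.48 to -0.22, adjusted p = 0.185 from limma), at signals of 21.6, 22.6 and 25.1 units with control RNA and 21.0, 20.6 and 23.8 units with RNA from TGF-β-treated cells. miR-2682-5p had a log2 difference of 0.49 (95% interval -0.41 to 1.39), and miR-449c-5p was detected on 1 array.

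**Figure D3:**
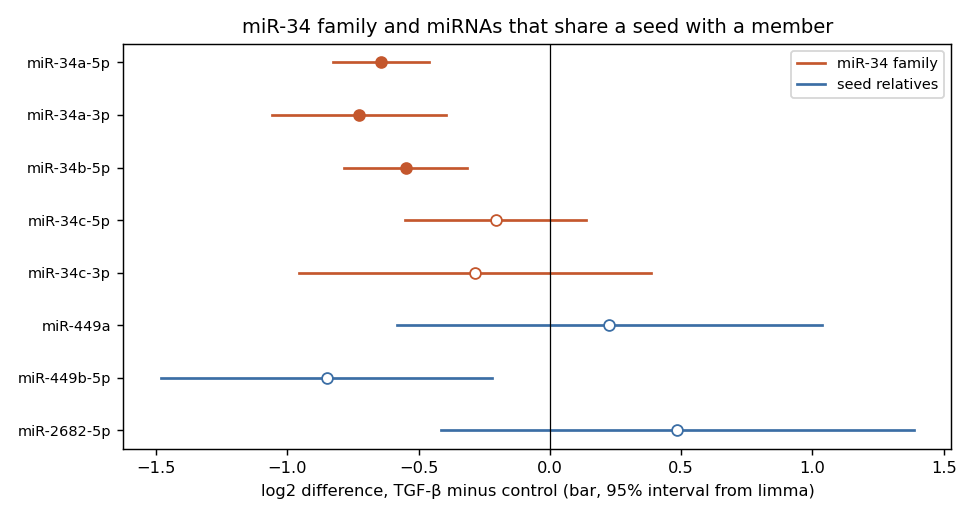
Log2 difference of TGF-β minus control with its 95% interval from limma (horizontal axis) for the 5 tested members of the family and the 3 tested miRNAs that share a seed with a member. Filled points have an adjusted p under 0.05; miR-34a-5p, miR-34a-3p and miR-34b-5p are filled and lie below 0, and no miRNA with a shared seed is filled.

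miRNAs of carcinoma cells and of other cell types were used to check the label. miR-21-5p and miR-31-5p were detected on all arrays, at least 3335 SDs above the blank mean, whereas miR-200c-3p was detected on 1 array and miR-141-3p, the other epithelial marker, on none. Of the acinar markers, miR-217 was not detected on any array and miR-216a-5p on 2, and of the islet markers miR-375 was detected on 1 array and miR-7-5p, which other tissues also express, on all 6. Of the 4 blood cell markers, miR-142-3p was detected on all 6 arrays, miR-451a on 5, miR-223-3p on 4 and miR-144-3p on 3, and none of the 3 that were tested was called. They stayed within 10.1 SDs of the blank mean and summed to at least 5.21 and at most 14.004 units above background per control array, compared with 8.21 to 11.2 units per TGF-β array. miR-122-5p of liver was detected on 1 control and 2 TGF-β arrays, and miR-124-3p of neurons on 2 TGF-β arrays. Both stayed within 3.96 SDs of the blank mean. miR-126-3p, a marker of endothelium, was detected on all arrays and was lower in TGF-β-treated cells (log2 difference -0.32, adjusted p = 0.0411 from limma, called in 7 of 26 alternatives), and its part in the change of the miR-34 members was not tested.

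The calls of the family depended on the background correction. When each spot's own local background was used in place of the blank spots (limma's normexp with an offset of 50), 0% of the 1457 miRNAs were called and 34 had an unadjusted p under 0.05, compared with 202 (13.9%) otherwise. The log2 differences were then 0.080 for miR-34a-5p, -0.028 for miR-34a-3p and -0.31 for miR-34b-5p, each with an adjusted p of 0.99 from limma. The direction of miR-34a-5p thus turned, and none of the 5 tested members had its groups apart, compared with 3.23% of all miRNAs apart and lower. The log2 values of miR-34a-5p were 6.19, 7.28 and 7.003 with control RNA and 6.91, 6.95 and 6.86 with RNA from TGF-β-treated cells, with control replicate 1 the lowest and the other two control arrays the highest. On its spot the local background was 1.02, 0.246 and 0.759 of the signal with control RNA and 0.754, 0.372 and 0.513 of it after TGF-β. On control replicate 1 the local background of this spot, 190 units, exceeded the signal of 186 units that was detected 258 SDs above the blank spots. Over 1282 miRNAs, those that all 6 arrays detected, any pair of arrays correlated with r of 0.64 to 0.97 (log2 values) after local correction, and with r of 0.98 to 0.99 after blank-spot correction.

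In the authors' processed values the groups of both called 5p arms overlapped. For miR-34a-5p they were 693, 798 and 804 with control RNA and 482, 697 and 462 with RNA from TGF-β-treated cells (765 ± 62.4 and 547 ± 130, SD, n = 3 each), and TGF-β replicate 2 was just above the lowest control array. For miR-34b-5p they were 160, 184 and 197 compared with 119, 172 and 126, with the same array overlapping. For miR-34a-3p they were 41, 45 and 54 compared with 30, 36 and 27, with groups apart. These values carry 1 scaling factor per array, chosen so that its detected miRNAs had a median of 25. TGF-β replicate 2 had the largest factor (4.78, others 3.37 to 4.31) and the most detected miRNAs (1787, others 1531 to 1604). limma on the log2 of the deposited values gave -0.51 for miR-34a-5p (adjusted p = 0.300). Once these values were rescaled on the miRNAs detected on all arrays, it gave -0.61 for miR-34a-5p (adjusted p = 0.000741), -0.70 for miR-34a-3p (0.0130) and -0.49 for miR-34b-5p (0.0166).

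**Figure D4:**
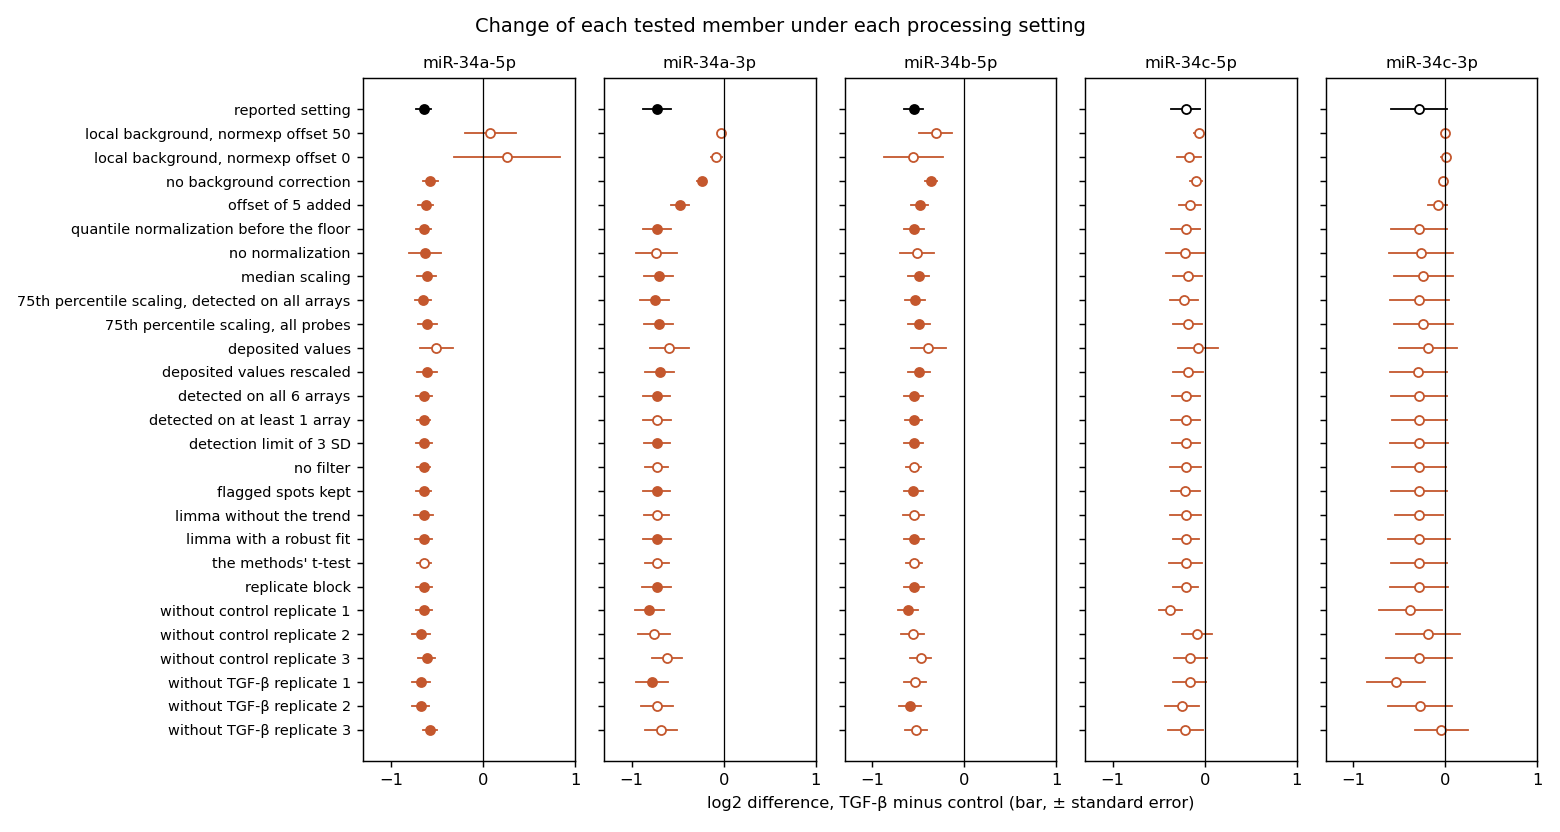
Log2 difference of TGF-β minus control with its standard error for the 5 tested members under the reported setting (black) and each alternative (orange). Filled points have an adjusted p under 0.05; miR-34a-5p lies between -0.68 and -0.51 except with the local background (0.080 and 0.26), and both miR-34c arms are open in every setting.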

How the data were processed

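Total RNA of Panc-1 cells was labeled with Cy5 and read on 6 miRNA arrays in 1 colour. The files deposited by the authors hold, for 3200 spots per array, unnormalized linear median intensities of the spot and its surroundings, and a table of processed intensities. The normalization of that table is not given in the sources used here, and it was rebuilt from the scanner files to within rounding.

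The mean of the blank spots, with 5% left out at each end, was subtracted, values under 1 were set to 1, 3 flagged miRNA spots were set as missing, and log2 values were quantile normalized over the 2565 miRNA probes. Differences were fitted in limma 3.58.1 (R 4.3.3) by lmFit and by eBayes with a trend on intensity, and figures were drawn with matplotlib 3.10.9 (Python 3.11.15). The procedure was tested on simulated data. Single differences were compared with a 2-sided exact permutation test. The members, the lists, the blank-spot background as the main setting and the rule for naming miRNAs were chosen with earlier results of these data known. The rule names all members, miRNAs that share a seed with one, marker miRNAs with an adjusted p under 0.05 and the 3 nearest profiles of each member. The other marker miRNAs were named outside this rule, after their values were seen, to check the label. Lists of other miRNAs of the same pathway are not reported here. The alternatives were other backgrounds, scalings, filters and tests, a block for the replicate number, the deposited values, and each array left out in turn.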

Additional observations from a re-analysis of the deposited data

How the results depend on the processing

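Over 26 alternatives, miR-34a-5p kept its direction and call in 22, miR-34a-3p in 14 and miR-34b-5p in 15, and neither miR-34c arm was called in any. The replicate number as a block changed no call of a member (20 calls lower became 21, and 38 higher became 39). The same-numbered arrays had correlations of 0.13, 0.11 and -0.027, so the numbers were not counted as pairs. With the local background (normexp offsets 50 and 0), the differences were 0.080 and 0.26 for miR-34a-5p, -0.028 and -0.081 for miR-34a-3p, -0.31 and -0.55 for miR-34b-5p, 0.0017 and 0.0062 for miR-34c-3p, and -0.066 and -0.17 for miR-34c-5p, and 0 miRNAs were called in either direction. The deposited values gave -0.51, -0.59 and -0.39 for miR-34a-5p, miR-34a-3p and miR-34b-5p with no call, and -0.075 for miR-34c-5p and -0.19 for miR-34c-3p. Without background correction the differences were -0.097 for miR-34c-5p, -0.028 for miR-34c-3p, -0.36 for miR-34b-5p and -0.24 for miR-34a-3p. miR-34a-3p and miR-34b-5p also lost their calls without normalization (-0.73 and -0.52), with no filter, without the trend and by the methods' t-test (-0.73 and -0.55 in each), and miR-34a-3p with detection on at least 1 array (-0.73). miR-34a-5p lost its call by the methods' t-test (-0.64, adjusted p = 0.0648). Apart from these filters and tests, the causes were not tested.

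With each array left out, the log2 differences were -0.81 to -0.61 for miR-34a-3p, -0.61 to -0.47 for miR-34b-5p, -0.68 to -0.58 for miR-34a-5p, -0.38 to -0.086 for miR-34c-5p and -0.53 to -0.045 for miR-34c-3p. Calls over all miRNAs were then 9 to 18 lower and 22 to 32 higher. Calls lower were 8 without normalization, 12 with median scaling, with 75th percentile scaling over all probes and with rescaled deposited values, 4 with the deposited values, 5 with no filter, 9 without the trend and 5 by the methods' t-test. Calls higher were 14 with no filter, 23 without the trend and 12 by the methods' t-test.

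Several differences between members reversed with the background. With the local background (offsets 50 and 0), miR-34b-5p minus miR-34a-3p was -0.28 and -0.47, miR-34b-5p minus miR-34a-5p was -0.39 and -0.81, miR-34c-3p minus miR-34a-5p was -0.078 and -0.25, miR-34c-3p minus miR-34c-5p was 0.068 and 0.18, miR-34c-5p minus miR-34a-3p was -0.038 and -0.092, and miR-34c-5p minus miR-34a-5p was -0.15 and -0.43. Without background correction and with an offset of 5 added, miR-34a-3p minus miR-34a-5p was 0.34 and 0.15, miR-34b-5p minus miR-34a-3p was -0.13 and -0.013, and miR-34c-3p minus miR-34c-5p was 0.070 and 0.076. With each array left out, miR-34c-3p minus miR-34c-5p was -0.37 to 0.17, miR-34a-3p minus miR-34a-5p was -0.16 to -0.0024, miR-34b-5p was 0.032 to 0.14 above miR-34a-5p and 0.14 to 0.24 above miR-34a-3p in its change, and miR-34c-5p was 0.27 to 0.59 above miR-34a-5p and 0.43 to 0.67 above miR-34a-3p. The change of miR-34c-3p was then 0.14 to 0.53 above that of miR-34a-5p, 0.24 to 0.63 above that of miR-34a-3p and 0.0021 to 0.48 above that of miR-34b-5p. Signals of miR-34b-3p and miR-34c-3p within 5 SDs of the blank spots limit what can be said of them.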
